A study of Homo sapiens with 27 samples.

Results

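The prostate kallikreins KLK2, KLK3, KLK4 and KLK15 were followed in 27 RNA-seq libraries from 3 human prostate cancer cell lines with stable knockdown of CPSF1. The 4 genes were taken by name from a table of 20268 gene symbols, as neighbours on chromosome 19 and as part of the family of 15 kallikrein genes, KLK1 to KLK15. KLK3 was also picked because earlier results of these data showed it changing in opposite directions in different lines, so its change with knockdown is described here without a test.

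CPSF1 is the largest subunit of the cleavage and polyadenylation specificity factor, the complex that recognizes the poly(A) signal of a pre-mRNA. LNCaP cells are hormone sensitive, whereas LNCaP95 and 22Rv1 cells are hormone insensitive. Each line was infected with lentivirus for a non-targeting hairpin (CTRL sh) or for either of 2 hairpins that target CPSF1, named CPSF1 sh1 and CPSF1 sh2, and selected with puromycin, giving 9 groups of 3 biological replicates. Cells of all groups, controls included, carried a lentiviral hairpin and were grown for 72 h. By the paper's methods, all lines were kept in RPMI medium with fetal bovine serum, and the medium of LNCaP95 alone was phenol-red-free. Line and medium thus cannot be told apart in a comparison of LNCaP95 with the others. The knockdown was a pool of infected cells in each line and not a clone, and the deposited counts do not separate transcripts of different length from the same gene.

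Kallikreins are secreted serine proteases encoded by a compact cluster of neighbouring genes. In the prostate their transcription depends largely on steroid hormone, through response elements in their promoters and enhancers. KLK3 encodes prostate-specific antigen, the serum marker of prostate cancer, which cleaves the gel proteins of semen. KLK2 encodes a trypsin-like protease that can activate the precursor of prostate-specific antigen. KLK4 is another trypsin-like member, known for its role in tooth enamel as well as in prostate, and KLK15 is a less abundant member that can also act on the prostate-specific antigen precursor.

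The members lie within 85.45 kb on chromosome 19 of GRCh37. KLK15 spans chr19:51328545-51340469 on the minus strand, KLK3 chr19:51358171-51364020 and KLK2 chr19:51364824-51383823 on the plus strand, and KLK4 chr19:51409608-51413994 on the minus strand. Only 803 bases separate the end of KLK3 from the start of KLK2 as the table has them, although the RefSeq start site of KLK2 lies further downstream. KLK2 and KLK3 are the closest pair in sequence: their coding sequences, of 783 bases each, are identical at 668 positions (85.3%), against 49.5 to 53.7% for the other pairs of members. No run of 75 bases was shared between the annotated transcripts of any pair of members, and 75 is the read length that the study's methods give for the alignment. Reads of KLK2 and KLK3 can still be placed on the wrong gene where they differ at few bases, and their counts are uncertain to that extent. As both genes lie on the plus strand, RNA that runs on from KLK3 into the counted exons of KLK2 would also be counted as KLK2. The paper reports more use of poly(A) sites past annotated gene ends after CPSF1 knockdown. Whether this reached the KLK2 counts was not tested.

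The promoters of KLK3 and KLK2 are shown because both hold a site close to the steroid hormone response element, the palindrome AGAACANNNTGTTCT. Each RefSeq promoter (300 bases, of which 250 lie before the start site, build GRCh38.p14) was found in GRCh37 by exact match, and the best 15-base window is in capitals below. As the motif is its own reverse complement, both strands were covered. The KLK3 window, at chr19:51357993-51358022 on the plus strand, differs from the motif at 2 of its 12 fixed letters, and the KLK2 window, at chr19:51376511-51376540 on the plus strand, at 3.
KLK3: gtaattgcAGAACAGCAAGTGCTagctctc
KLK2: gtatgtgtGGAACAGCAAGTGCTggctctc
The 2 sites share 14 of 15 bases, with the substitution A1G from KLK3 to KLK2, counted from the 5′ end of the site. Of 35114 RefSeq promoters of this length, 1.41% held a window with at most 2 mismatches and 10.8% with at most 3. RefSeq lists 2 promoters each for KLK4 and KLK15, and the best windows in them had 5 or 6 mismatches.

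The poly(A) signals are shown because CPSF1 belongs to the complex that reads them. In the last 50 bases of the canonical transcript of the GENCODE annotation lifted to GRCh37, KLK2, KLK3 and KLK4 carry AATAAA and KLK15 carries ATTAAA, in capitals below.
KLK3: agaactcacagaAATAAAgagctgttatac
KLK2: actggggcagcaAATAAAactgaatcttgt
KLK4: cctagatccagaAATAAAgtctaagagaag
KLK15: tcgtctgaactgATTAAAatcgtgtctggc
These 30-base windows lie at chr19:51363987-51364016 (KLK3) and chr19:51383782-51383811 (KLK2) on the plus strand, and at chr19:51409611-51409640 (KLK4) and chr19:51328550-51328579 (KLK15) on the minus strand. Over 19553 canonical protein-coding transcripts, 64.1% held AATAAA in the last 50 bases and 14.1% held ATTAAA without it.

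Libraries held between 8515624 and 15904518 counts on genes, with a median of 11058723. Levels are given as normalized CPM, CPM being counts scaled to a common library size, after TMM scaling over all 27 libraries. CPSF1 itself was lower in all 6 CPSF1 sh libraries than in the 3 CTRL sh libraries of every line, from 153 to 155 down to 87.5 to 109 CPM in LNCaP, from 96.8 to 128 down to 56.6 to 67.5 CPM in LNCaP95 and from 180 to 187 down to 110 to 139 CPM in 22Rv1. All 8 luminal markers exceeded 2 CPM in every group, a level that 11443 or more genes exceeded in the controls of each line. Their sum was at least 2117 CPM in every library. The basal marker KRT14 also exceeded 2 CPM in the knockdown groups of LNCaP and LNCaP95. The 3 basal markers summed to at most 6.37 CPM in any library, the 3 immune markers to at most 1.64 CPM, and of the 3 stromal markers only COL1A1 exceeded 2 CPM. In 22Rv1 cells, 2 of 4 neuroendocrine markers exceeded 2 CPM and the sum of the 4 ranged from 60.9 to 85.5 CPM. In the other lines it was at most 6.09 CPM, in LNCaP CPSF1 sh1 replicate 3, a library taken up in the next paragraph. Outside the LNCaP CPSF1 sh1 group it was at most 2.76 CPM in these lines. The marker sums moved with knockdown in all 3 lines. In LNCaP the basal sum went from 1.28 to 2.15 CPM in controls to 3.83 to 6.37 CPM and the stromal sum from 22.4 to 26.6 down to 13.3 to 16.9 CPM. The basal rise was mostly KRT14, from a mean of 1.75 CPM to 4.63 and 6.19 CPM with CPSF1 sh1 and sh2. In LNCaP95 the luminal sum went from 3735 to 3943 down to 2950 to 3029 CPM. Of the 8 luminal markers there, 2 rose and 3 fell at an adjusted p below 0.05 (edgeR), against 33.2% and 33.7% of all genes. Their median log2 change was -0.057. TMPRSS2 went from a mean of 960 CPM down to 386 and 253 CPM, whereas HOXB13 went from 363 up to 439 and 424 CPM. In 22Rv1 the neuroendocrine sum went from 77.8 to 85.5 down to 60.9 to 74.5 CPM, and the luminal sum from 2363 to 2397 up to 2422 to 2567 CPM with CPSF1 sh1 and down to 2117 to 2164 CPM with CPSF1 sh2. Their part in the results on kallikreins was not tested.

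A pair of libraries stood apart. In LNCaP CPSF1 sh1 replicate 3, 51 genes that exceeded 20 CPM in all 9 libraries of 22Rv1 and stayed under 0.3 CPM in the other 17 libraries of LNCaP and LNCaP95 summed to 185 CPM, 6.67% of their mean sum in 22Rv1. No gene met this rule in any other LNCaP or LNCaP95 library. The second was 22Rv1 CPSF1 sh1 replicate 3, which differed from its replicates by a chi-square per degree of freedom of 4.37 and 6.98. The other replicate pairs gave 1.38 to 5.03. The 5.03 was between replicates 1 and 2 of LNCaP95 CTRL sh, so only the 6.98 lay outside that range. The change of each member with knockdown in LNCaP and 22Rv1 is given with and without the library of that line. Other results that use these libraries are given with them unless stated.

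The first question was how abundant each member was before knockdown. Genes were compared per kilobase of exon, with the exon lengths deposited with the counts. These are 2745 bases for KLK3 and 4164 for KLK2, against 1464 and 2829 in the canonical transcripts. They differ less for KLK4 (1483 and 1416) and KLK15 (1497 and 1357), so KLK3 and KLK2 may read low against these. On this measure KLK3 was the most abundant member in LNCaP (411 ± 13.3 CPM per kb, SD, n = 3) and LNCaP95 (740 ± 8.37), ranking 45 of 11599 and 16 of 11443 genes above 2 CPM. In 22Rv1 it stood at 14.6 ± 1.00 CPM per kb, rank 4700 of 12144, and KLK4 led with 172 ± 0.776 CPM per kb, rank 177. KLK2 stood at 72.4 ± 1.97, 78.4 ± 3.07 and 23.8 ± 0.467 CPM per kb in LNCaP, LNCaP95 and 22Rv1. KLK15 was the least abundant member in all 3 lines, at 3.47 to 4.17 CPM per kb.

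KLK3 in CTRL sh libraries read 1090, 1163 and 1129 CPM in LNCaP, 2016, 2018 and 2057 CPM in LNCaP95, and 41.5, 37.03 and 42.1 CPM in 22Rv1. The lines did not overlap. On the log2 scale KLK3 was higher in LNCaP95 than in LNCaP by 0.85 ± 0.039 (SE; adjusted p = 5.13e-17, quasi-likelihood F-test of edgeR, Benjamini-Hochberg adjusted over 12771 genes), and its difference of 22Rv1 from LNCaP was -4.81 ± 0.051 (adjusted p = 5.00e-31). KLK2 followed the same order with a smaller spread, and was lower in 22Rv1 than in LNCaP by a log2 difference of -1.61 ± 0.044 (adjusted p = 2.83e-22). Its excess in LNCaP95 over LNCaP was slight, 0.12 ± 0.040 (adjusted p = 0.0105), and passed the threshold neither without LNCaP CTRL sh replicate 1 (0.097, adjusted p = 0.0582) nor without LNCaP95 CTRL sh replicate 1 (0.078, adjusted p = 0.0708).

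KLK4 was most abundant in 22Rv1. It was higher there than in LNCaP by 0.72 ± 0.045 (adjusted p = 3.74e-14) and than in LNCaP95 by 0.67 ± 0.045 (adjusted p = 1.29e-13) on the log2 scale. LNCaP95 and LNCaP differed in KLK4 by 0.052, with a 95% interval from -0.044 to 0.15 (adjusted p = 0.315), but by 0.099 (adjusted p = 0.0290) without LNCaP95 CTRL sh replicate 2. KLK15 did not pass the threshold between any pair of lines (adjusted p from 0.150 to 0.930). Without 22Rv1 CTRL sh replicate 1 it was higher in 22Rv1 by 0.42 than in LNCaP (adjusted p = 0.0252) and by 0.41 than in LNCaP95 (adjusted p = 0.0271). Such calls were common, since 77.7% of all genes tested passed between LNCaP95 and LNCaP, 84.3% between 22Rv1 and LNCaP, and 86.3% between 22Rv1 and LNCaP95. In bulk RNA, fewer cells that express a gene and less of its RNA per cell cannot be told apart.

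**Figure D1:**
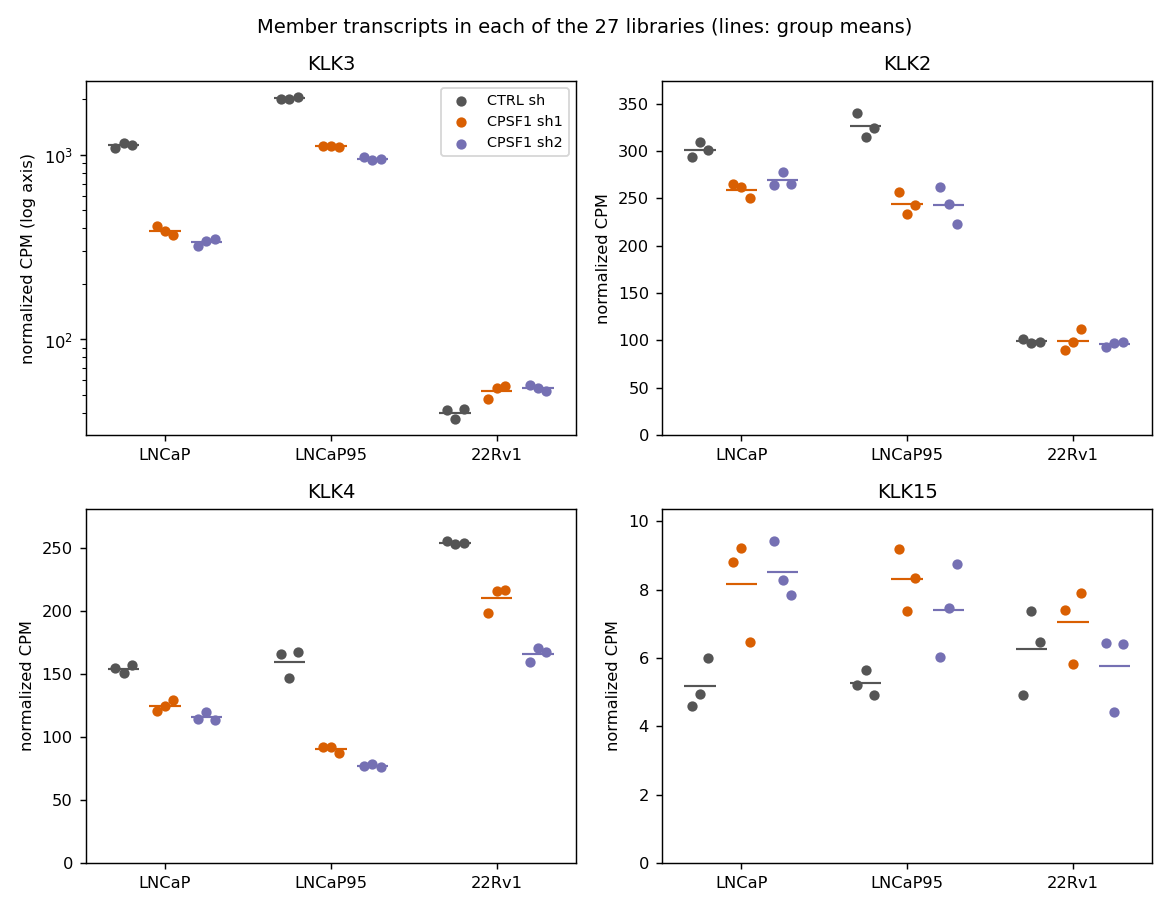
Normalized CPM of KLK3 (log axis), KLK2, KLK4 and KLK15 (linear axes from 0) in every library by cell line, with dots for the 3 replicates of CTRL sh, CPSF1 sh1 and CPSF1 sh2 and a line at each group mean. KLK3 with either CPSF1 hairpin lies below all CTRL sh libraries in LNCaP and LNCaP95 and above them in 22Rv1 (47.7 to 56.6 against 37.03 to 42.1 CPM).

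The next question was how each member changed when CPSF1 was knocked down. KLK3 was lower with knockdown in LNCaP and LNCaP95 and higher in 22Rv1. In LNCaP, the 3 CTRL sh values of 1090 to 1163 CPM compared with 411, 387 and 368 CPM with CPSF1 sh1 and 322, 341 and 349 CPM with CPSF1 sh2. The log2 change over both hairpins was -1.62 ± 0.059 (SE), to 0.325 of the control level, and -1.63 without LNCaP CPSF1 sh1 replicate 3. In LNCaP95, KLK3 went from 2016 to 2057 CPM to 1123, 1120 and 1103 CPM with CPSF1 sh1 and 976, 938 and 948 CPM with CPSF1 sh2, a log2 change of -0.95 ± 0.062. In 22Rv1, it went from 37.03 to 42.1 CPM to 47.7, 54.8 and 55.8 CPM with CPSF1 sh1 and 56.6, 54.3 and 52.6 CPM with CPSF1 sh2, a log2 change of 0.42 ± 0.067, and of 0.41 without 22Rv1 CPSF1 sh1 replicate 3. Control and knockdown values did not overlap in any line, and the higher values in 22Rv1 lay far under those of the other lines: KLK3 in knocked-down LNCaP cells, at 322 CPM or more, still exceeded the highest 22Rv1 value of 56.6 CPM.

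All 4 members passed the filter on low values in every line. Of the other 3 members, all passed the test in LNCaP and in LNCaP95, against 62.1% and 66.9% of all genes tested there, and 1 passed in 22Rv1, against 26.9%. The share of genes called was thus high in the first pair of lines, and the count of members adds little to it. The sizes and directions are what set the members apart from each other. The share of all genes whose control and knockdown values did not overlap was not counted. Lack of overlap is therefore given only as a description of each gene.

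KLK2, the closest relative of KLK3, fell in LNCaP and LNCaP95 by far less, subject to the limits on its counts given above. In LNCaP it read 294, 310 and 301 CPM in controls, 265, 262 and 250 CPM with CPSF1 sh1 and 264, 278 and 265 CPM with CPSF1 sh2, so that controls and knockdown did not overlap while the hairpins did. The log2 change was -0.18 ± 0.034 (adjusted p = 3.85e-04, edgeR), and -0.17 (adjusted p = 8.73e-04) without LNCaP CPSF1 sh1 replicate 3. In LNCaP95, KLK2 went from 340, 314 and 325 CPM to 256, 233 and 242 CPM with CPSF1 sh1 and 262, 244 and 223 CPM with CPSF1 sh2, a log2 change of -0.40 ± 0.053 (adjusted p = 2.59e-05). In 22Rv1 the groups overlapped, at 97.5 to 101 CPM in controls, 89.5 to 112 CPM with CPSF1 sh1 and 92.7 to 98.2 CPM with CPSF1 sh2. The log2 difference there was -0.018, with a 95% interval from -0.15 to 0.11 (adjusted p = 0.853), and -0.058 (adjusted p = 0.316) without 22Rv1 CPSF1 sh1 replicate 3, which gave the value of 112 CPM.

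KLK4 fell in all 3 lines, and was the only tested member to pass in 22Rv1. In LNCaP it went from 155, 151 and 157 CPM to 121, 124 and 129 CPM with CPSF1 sh1 and 114, 120 and 113 CPM with CPSF1 sh2 (log2 change -0.34 ± 0.046, adjusted p = 1.45e-05, and -0.37, adjusted p = 2.93e-06, without LNCaP CPSF1 sh1 replicate 3). In LNCaP95 it went from 166, 147 and 167 CPM to 92.1, 91.8 and 87.2 CPM with CPSF1 sh1 and 76.6, 78.9 and 75.9 CPM with CPSF1 sh2. This was its largest log2 change, -0.91 ± 0.069 (adjusted p = 4.26e-07). In 22Rv1, where KLK4 was most abundant, it went from 256, 253 and 254 CPM to 198, 216 and 217 CPM with CPSF1 sh1 and 160, 171 and 168 CPM with CPSF1 sh2 (log2 change -0.44 ± 0.085, adjusted p = 0.00206, and -0.48, adjusted p = 1.53e-04, without 22Rv1 CPSF1 sh1 replicate 3). No knockdown value overlapped with a control value in any line, with the limit given above on such descriptions.

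KLK15 rose in LNCaP and LNCaP95, from a low level. In LNCaP it went from 4.61, 4.95 and 6.01 CPM to 8.82, 9.21 and 6.48 CPM with CPSF1 sh1 and 9.42, 8.28 and 7.84 CPM with CPSF1 sh2. The log2 change was 0.70 ± 0.14 (adjusted p = 4.83e-04), and 0.75 (adjusted p = 1.20e-04) without LNCaP CPSF1 sh1 replicate 3, the lowest of the 6. In LNCaP95 it went from 5.21, 5.64 and 4.91 CPM to 9.20, 7.38 and 8.33 CPM with CPSF1 sh1 and 6.03, 7.46 and 8.76 CPM with CPSF1 sh2 (log2 change 0.60 ± 0.14, adjusted p = 0.00201). In 22Rv1 the values overlapped, at 4.91 to 7.37 CPM in controls and 4.42 to 7.89 CPM with knockdown, and the log2 difference of 0.046 had a 95% interval from -0.32 to 0.41 (adjusted p = 0.869), -0.016 (adjusted p = 0.952) without 22Rv1 CPSF1 sh1 replicate 3. These values rest on 43 to 152 counts per library, the fewest of any member.

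**Figure D2:**
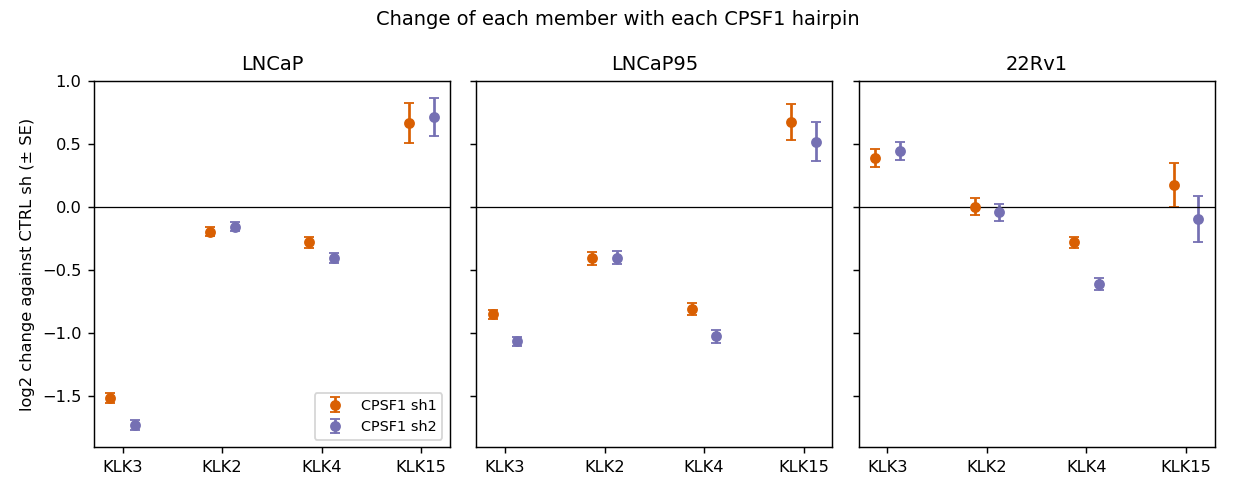
Log2 change of each member against CTRL sh for CPSF1 sh1 and CPSF1 sh2, in 3 panels by cell line, with bars of ± SE from edgeR fits of 9 libraries each. Both hairpins move KLK3 down in LNCaP and LNCaP95 and up in 22Rv1, and KLK4 lies lower with CPSF1 sh2 than with CPSF1 sh1 in every panel.

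Each hairpin alone gave the same direction for KLK3 in each line. With CPSF1 sh1 the log2 change was -1.52 (LNCaP), -0.85 (LNCaP95) and 0.39 (22Rv1), and with CPSF1 sh2 it was -1.73 (LNCaP), -1.07 (LNCaP95) and 0.44 (22Rv1). The hairpins differed from each other, with CPSF1 sh2 leaving KLK3 lower than CPSF1 sh1 by a log2 difference of -0.22 in both LNCaP (adjusted p = 0.00125, and 7.99e-04 without LNCaP CPSF1 sh1 replicate 3) and LNCaP95 (adjusted p = 1.58e-04). In 22Rv1 this difference was 0.057, with a 95% interval from -0.091 to 0.21 (adjusted p = 0.647).

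KLK4 showed the hairpin difference in LNCaP95 (-0.22 ± 0.053, adjusted p = 0.00356) and 22Rv1 (-0.33 ± 0.046, adjusted p = 3.69e-04, and -0.31, adjusted p = 1.36e-05, without 22Rv1 CPSF1 sh1 replicate 3). In LNCaP the values of the hairpins did not overlap either, but the difference of -0.12 ± 0.042 had an adjusted p of 0.0552, which became 0.217 without LNCaP CPSF1 sh1 replicate 3 and 0.0405 without LNCaP CPSF1 sh1 replicate 1. For KLK2 and KLK15 the hairpins did not differ past the threshold in any line (adjusted p from 0.358 to 0.949). Over all genes tested, 14.8% differed between hairpins in LNCaP, 34.1% in LNCaP95 and 11.3% in 22Rv1. CPSF1 itself did not pass between hairpins in any line (log2 difference of -0.14 in LNCaP, 0.00041 in LNCaP95 and 0.067 in 22Rv1, adjusted p from 0.0773 to 0.998).

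Whether the response differed between lines was tested as an interaction in a fit of all 27 libraries, in which 54.6% of genes passed between LNCaP95 and LNCaP, 47.4% between 22Rv1 and LNCaP, and 56.2% between 22Rv1 and LNCaP95. For KLK3, given without a test, the log2 change was higher by 0.66 in LNCaP95 than in LNCaP, by 2.06 in 22Rv1 than in LNCaP, and by 1.39 in 22Rv1 than in LNCaP95. KLK4 fell more in LNCaP95 than in LNCaP (difference of log2 changes -0.58 ± 0.057, adjusted p = 7.86e-10) and than in 22Rv1 (22Rv1 minus LNCaP95 0.49 ± 0.055, adjusted p = 1.09e-08). Its fall in 22Rv1 and in LNCaP differed by -0.088, with a 95% interval from -0.20 to 0.025 (adjusted p = 0.194).

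KLK2 likewise fell more in LNCaP95 than in LNCaP (-0.23 ± 0.066, adjusted p = 0.00400) and than in 22Rv1 (22Rv1 minus LNCaP95 0.40 ± 0.072, adjusted p = 1.95e-05). Between 22Rv1 and LNCaP its change differed by 0.17 ± 0.072 (adjusted p = 0.0482), which held in only 8 of 27 fits with a library left out and became 0.15 (adjusted p = 0.0807) without LNCaP CPSF1 sh1 replicate 3 and 0.12 (adjusted p = 0.119) without 22Rv1 CPSF1 sh1 replicate 3. The 8 libraries whose omission kept it were LNCaP CPSF1 sh2 replicate 2, LNCaP95 CTRL sh replicate 2, LNCaP95 CPSF1 sh1 replicates 1 and 2, LNCaP95 CPSF1 sh2 replicates 1 and 3, 22Rv1 CPSF1 sh1 replicate 1 and 22Rv1 CPSF1 sh2 replicate 1. KLK15 changed less in 22Rv1 than in LNCaP (-0.64 ± 0.22, adjusted p = 0.0188) and than in LNCaP95 (-0.54 ± 0.22, adjusted p = 0.0375). The first held in 26 of 27 fits, the exception being that without 22Rv1 CTRL sh replicate 2 (-0.51, adjusted p = 0.0854). The second held in 19 of 27, and was lost without replicate 1 or 3 of LNCaP95 CTRL sh, replicate 1 of LNCaP95 CPSF1 sh1, replicate 3 of LNCaP95 CPSF1 sh2, replicate 2 or 3 of 22Rv1 CTRL sh, replicate 2 of 22Rv1 CPSF1 sh1 or replicate 2 of 22Rv1 CPSF1 sh2, with a highest adjusted p of 0.138 and a difference of -0.42. Between LNCaP95 and LNCaP the change of KLK15 differed by -0.10, with a 95% interval from -0.55 to 0.35 (adjusted p = 0.734).

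**Figure D3:**
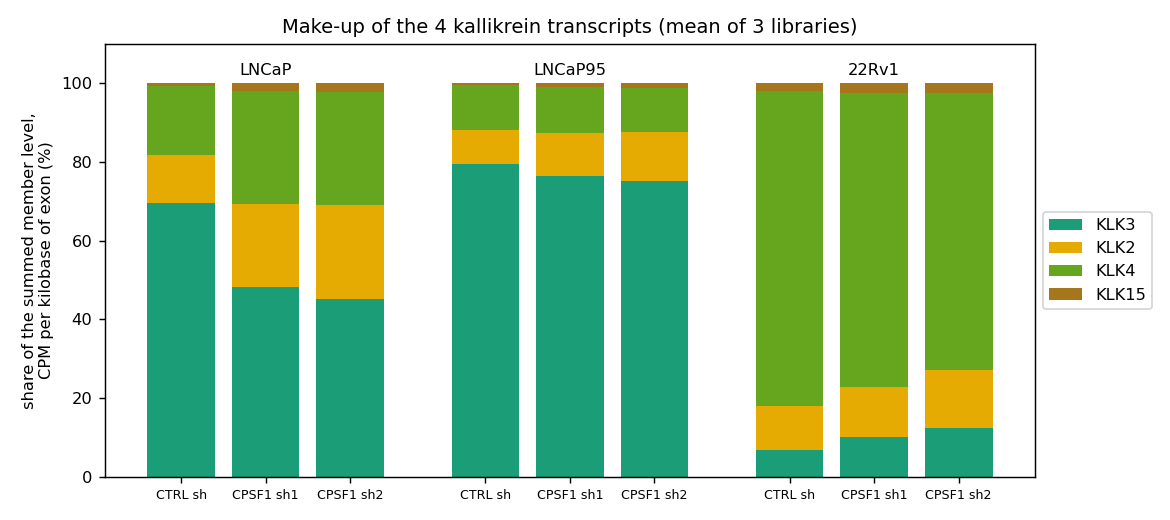
Share of each member in the summed level of the 4 transcripts, in percent of CPM per kilobase of exon, as stacked bars of group means of 3 libraries. KLK3 makes up 69.5% of the LNCaP and 79.6% of the LNCaP95 control bar but 6.84% in 22Rv1, where KLK4 makes up 80.1%.

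These changes shifted the make-up of the kallikrein transcripts, given here as a description. The shares depend on the exon lengths used, with the limit given above. In LNCaP the share of KLK3 in the summed level per kilobase went from 69.5 ± 0.618% (SD, n = 3) in controls to 48.2 ± 1.46% with CPSF1 sh1 and 45.3 ± 1.201% with CPSF1 sh2, while that of KLK2 went from 12.3% to 21.2% and 23.8% and that of KLK4 from 17.6% to 28.7% and 28.8%. The summed level itself went from 591 to 293 and 271 CPM per kb. In LNCaP95 the summed level went from 929 to 531 and 463 CPM per kb, yet the share of KLK3 moved only from 79.6 ± 0.827% to 76.5 ± 0.490% and 75.1 ± 0.612%, since KLK4 was lower by a like factor. In 22Rv1 the summed level went from 214 to 190 and 159 CPM per kb, the share of KLK4 from 80.1 ± 0.264% to 74.8 ± 1.03% and 70.5 ± 0.947%, and that of KLK3 from 6.84 ± 0.433% to 10.1 ± 0.288% and 12.5 ± 0.708%. Together the 4 members took 0.156% of all counts in LNCaP, 0.242% in LNCaP95 and 0.0401% in 22Rv1 control libraries.

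**Figure D4:**
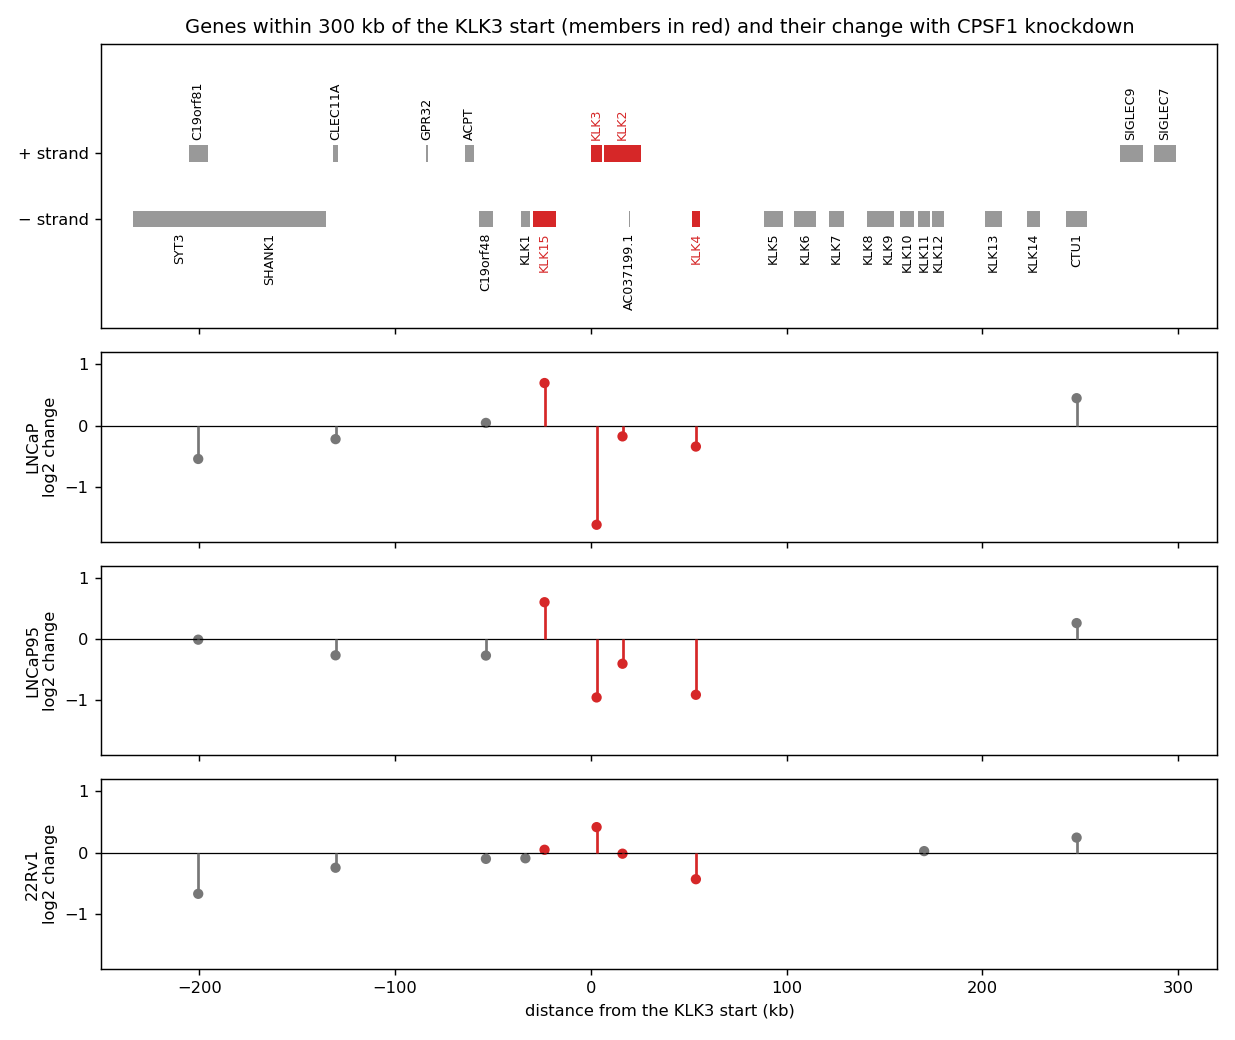
Genes within 300 kb of the KLK3 start by distance in kb and strand (top, members in red), and the log2 change with CPSF1 knockdown of those that passed the expression filter in each line, at the gene's middle (lower panels). In LNCaP the adjacent KLK15, KLK3 and KLK2 stand at 0.70, -1.62 and -0.18.

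Around the members, the changes did not run in 1 direction. C19orf81, a gene of low level, fell by 0.54 in LNCaP (adjusted p = 0.0119) and by 0.67 in 22Rv1 (adjusted p = 0.0155), with a value of -0.0094 in LNCaP95 (adjusted p = 0.993). C19orf48, within 300 kb of the KLK3 start, did not pass in LNCaP (0.045, adjusted p = 0.288) or 22Rv1 (-0.10, adjusted p = 0.202) and fell by 0.27 in LNCaP95 (adjusted p = 8.65e-04). CLEC11A, which encodes a secreted growth factor, fell by 0.22 in LNCaP (adjusted p = 0.0150) and did not pass in LNCaP95 (-0.26, adjusted p = 0.0849) or 22Rv1 (-0.25, adjusted p = 0.204). CTU1, a tRNA-modifying enzyme, rose in LNCaP by 0.45 (adjusted p = 0.00399) and did not pass in LNCaP95 (0.26, adjusted p = 0.140) or 22Rv1 (0.24, adjusted p = 0.253).

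Of the 15 kallikreins, the 4 members alone passed the filter of 2 CPM in LNCaP and LNCaP95, and KLK1 and KLK11 also passed in 22Rv1. KLK1 encodes tissue kallikrein, which releases kinins, and stood at 49.2 CPM in 22Rv1 controls. KLK11 stood at 15.1, 16.0 and 18.9 CPM in 22Rv1 controls, 20.9, 23.9 and 24.1 CPM with CPSF1 sh1 and 10.7, 9.77 and 11.9 CPM with CPSF1 sh2. The hairpins thus moved KLK11 to opposite sides of control, with no overlap. It rose by 0.46 with CPSF1 sh1 (adjusted p = 0.00484, where 19.9% of genes passed), fell by 0.61 with CPSF1 sh2 (adjusted p = 6.48e-04, where 40% of genes passed) and differed by -1.07 ± 0.11 between them (adjusted p = 3.07e-05). Pooled over hairpins neither gene passed in 22Rv1 (KLK1 -0.093, adjusted p = 0.390, and KLK11 0.024, adjusted p = 0.956).

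KLK1 lies 1501 bases beyond the end of KLK15 on the same strand and was under the filter in LNCaP. It read 3, 3 and 4 counts in LNCaP controls, 17, 10 and 60 counts with CPSF1 sh1 and 14, 20 and 14 counts with CPSF1 sh2, so that controls and knockdown did not overlap. In a fit with no filter its log2 change was 2.74 ± 0.65 (adjusted p = 0.00209) and 2.12 ± 0.41 (adjusted p = 1.60e-04) without LNCaP CPSF1 sh1 replicate 3, the library of 60 counts. KLK11, at 0 counts in the other 8 LNCaP libraries, also read 19 counts there. In that fit 47.7% of all genes passed, and 49.2% without that library. In LNCaP95 KLK1 read 4 to 11 counts in every library and did not pass without a filter (-0.059, adjusted p = 0.911, where 51.8% of genes passed).

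Transcription factors and cofactors that act on kallikrein genes, a list of 16 genes, were all measured in each line. In LNCaP 6 rose and 8 fell (median log2 change -0.12, against -0.00036 over all genes tested, of which 31.1% rose and 31% fell). FOXA1, a pioneer factor that opens chromatin, fell in LNCaP by 0.48 ± 0.035 (adjusted p = 3.20e-08) and in LNCaP95 by 0.23 ± 0.040 (adjusted p = 2.11e-04), and its 22Rv1 value was 0.054 (adjusted p = 0.317).

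GATA2, a zinc-finger transcription factor, fell by 0.34 in LNCaP (adjusted p = 4.15e-05) and by 0.48 in LNCaP95 (adjusted p = 0.00210), and rose by 0.35 in 22Rv1 (adjusted p = 0.00337). HOXB13, a prostate homeobox factor, fell by 0.29 in LNCaP (adjusted p = 2.34e-06) and rose by 0.27 in LNCaP95 (adjusted p = 1.59e-04). The coactivators NCOA1 and NCOA2 rose in LNCaP95 by 0.58 and 0.75, and the corepressor NCOR1 fell there by 0.62 (adjusted p = 3.74e-06). In LNCaP95 6 of the 16 rose and 5 fell (33.2% and 33.7% of all genes), with a median of 0.0063. In 22Rv1 3 rose and 1 fell (12.7% and 14.3% of all genes), with a median of 0.072, and the count that rose varied from 1 to 8 as single libraries were left out, being 8 without 22Rv1 CPSF1 sh1 replicate 3. It was 1 without any of the 3 CTRL sh or the 3 CPSF1 sh2 libraries of 22Rv1, and those that fell numbered 2 without 22Rv1 CPSF1 sh1 replicate 3 or CPSF1 sh2 replicate 2.

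Of 8 inhibitors that bind kallikreins or related serine proteases, 3 were tested in LNCaP and LNCaP95 and 5 in 22Rv1. SERPINB6, an intracellular serpin, fell by 0.39 in LNCaP (adjusted p = 6.67e-07) and by 0.29 in LNCaP95 (adjusted p = 0.00504), and its value in 22Rv1 was -0.052 (adjusted p = 0.599). SPINK1, a trypsin inhibitor, was tested only in 22Rv1, where it fell by 1.11 ± 0.13 (adjusted p = 5.98e-05) and was the only one of the 5 inhibitors to pass, where 26.9% of all genes passed. All 3 inhibitors tested passed in LNCaP (62.1% of all genes) and 2 of 3 in LNCaP95 (66.9%). In LNCaP SPINT1 rose by 0.20 (adjusted p = 0.00212) and SPINT2 fell by 0.12 (adjusted p = 0.00830, and the count of inhibitors that fell was 1 without LNCaP CTRL sh replicate 1). SPINT2 also fell by 0.18 in LNCaP95 (adjusted p = 0.00167). The medians of the list were -0.12 in LNCaP, -0.18 in LNCaP95 and -0.052 in 22Rv1.

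Of 6 substrates of these proteases, the same 3 were tested in each line, and SEMG1 and SEMG2, the semen gel proteins, and PLAU, urokinase, did not pass the filter. IGFBP3, an insulin-like growth factor carrier that prostate-specific antigen can cleave, rose by 2.796 ± 0.17 in LNCaP (adjusted p = 6.18e-09) and 2.44 ± 0.64 in LNCaP95 (adjusted p = 0.00465), and its value in 22Rv1 was 0.28 (adjusted p = 0.352). These pooled values cover unequal hairpins. In LNCaP95, IGFBP3 stood at 44.8 ± 2.67 CPM (SD, n = 3) in controls, 80.2 ± 5.67 CPM after CPSF1 sh1 and 401 ± 21.4 CPM after CPSF1 sh2. The hairpins in 22Rv1 lay on opposite sides of control without overlap, at 168 ± 3.95 CPM in controls, 144 ± 10.8 CPM with CPSF1 sh1 (log2 change -0.23, adjusted p = 0.00642) and 263 ± 11.5 CPM with CPSF1 sh2 (0.65, adjusted p = 1.37e-07). FN1, fibronectin, fell by 0.36 in LNCaP (adjusted p = 0.00183) and rose in LNCaP95 by 1.90 (adjusted p = 1.33e-06) and in 22Rv1 by 1.42 (adjusted p = 0.00319). F2RL1, a protease-activated receptor, rose by 0.55 in LNCaP (adjusted p = 6.97e-06) and fell by 0.28 in 22Rv1 (adjusted p = 0.00995). Its fall in LNCaP95 of 0.11 had an adjusted p of 0.0495 and was lost in 8 of 9 fits with a library left out, all but that without LNCaP95 CPSF1 sh2 replicate 3. In 22Rv1 no substrate fell past the threshold without 22Rv1 CTRL sh replicate 2. The medians of the list were 0.55, 1.90 and 0.28 in LNCaP, LNCaP95 and 22Rv1. By hairpin they were 0.85 with CPSF1 sh1 and 2.17 with CPSF1 sh2 in LNCaP95, and of opposite sign in 22Rv1, -0.23 with CPSF1 sh1 and 0.65 with CPSF1 sh2.

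Genes whose level tracked each member most closely were taken by Pearson's r of log2 CPM over the 27 libraries, as a description. As these libraries come from 3 lines, such values largely follow the differences between lines. For KLK3 these were PFKP (r = 0.994), a phosphofructokinase of glycolysis, RNASET2 (0.992), PGPEP1 (0.991), KLF13 (0.990) and TMEM159 (0.990). KLK2 and KLK3 had an r of 0.943 with each other, and KLK4 had an r of -0.672 with KLK3 and -0.628 with KLK2. After each line was centred on its own mean, which leaves the changes within lines, KLK3 had an r of 0.706 with KLK2, 0.589 with KLK4 and -0.724 with KLK15.

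With lines centred, the genes most like KLK3 were MEX3A (0.966), SLC25A29 (0.958), TMEM63A (0.958), LGALS8 (0.954) and POGZ (0.953). Those most like KLK4 were SCD (0.977), a fatty acid desaturase, KLHDC2 (0.970), CTNND1 (0.963), CLDN4 (0.962) and DVL2 (0.962), and those most like KLK2 were GCDH (0.939), EPN2 (0.924), GRAMD1A (0.918), PKM (0.917) and NR4A1 (0.910). Over the 27 libraries without centring, KLK4 was most like CAMK2D (0.971) and NPC2 (0.969), and KLK2 was most like IDH2 (0.991) and EPB41L5 (0.991).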

How the data were processed

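RNA from 3 biological replicates of each of 9 groups was made into strand-specific, poly(A)-selected libraries. Reads were aligned by the authors to GRCh37 with HISAT2 2.1.0 and assigned to annotated genes by reverse-stranded featureCounts (Subread 2.0.3 in the submitters' processing notes). The authors deposited raw counts per gene, without normalization, as a single table in which 0 columns of sample values were left unmatched. As a table of counts per gene it cannot show which poly(A) site or isoform was used.

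Counts were analysed here with edgeR 4.0.16 in R 4.3.3, using TMM scaling and the quasi-likelihood F-test, with p-values adjusted by Benjamini-Hochberg over all genes tested and a threshold of 0.05. The fit of a line took genes that exceeded 2 CPM in each of its 9 libraries, and 3 CTRL sh libraries were there compared with 6 CPSF1 sh libraries. Hairpins were compared in fits of 3 groups per line, control levels in a fit of the 9 CTRL sh libraries, and responses between lines as interactions over all 27 libraries. Fits were tested first on simulated counts in which few genes changed and all lines shared the same mean profile, unlike these data. That test therefore does not give the rate of false calls here. The labels do not say that replicates came from separate infections, so p-values measure the spread between these samples, which may be technical.

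Named genes were the 4 members, CPSF1, some cell type markers and genes within 300 kb of the KLK3 start. Genes of the lists of kallikreins, regulators, inhibitors and substrates were also named. So were the 5 genes with the highest Pearson r with KLK2, KLK3 or KLK4. The members and lists were chosen with earlier results of these data known. The rule for the library holding genes of 22Rv1 was set after seeing the data. Alternatives were DESeq2 1.42.0, other scalings, filters and forms of the test, a replicate block, each hairpin alone and each library left out. The values of a member of the regulator list are not reported here.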

Additional observations from a re-analysis of the deposited data

Results flagged for a closer look

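The log2 change with CPSF1 knockdown differed past the threshold between some lines for KLK2, KLK4 and KLK15. In the same test, 54.6% of all genes passed between LNCaP95 and LNCaP, 47.4% between 22Rv1 and LNCaP, and 56.2% between 22Rv1 and LNCaP95. Such calls were thus common. By the interaction test over 27 libraries (edgeR), KLK2 differed by -0.2299 between LNCaP95 and LNCaP (adjusted p = 0.00400), by 0.1729 between 22Rv1 and LNCaP (adjusted p = 0.0482) and by 0.4028 between 22Rv1 and LNCaP95 (adjusted p = 1.95e-05). KLK4 differed by -0.5785 between LNCaP95 and LNCaP (adjusted p = 7.86e-10) and by 0.4904 between 22Rv1 and LNCaP95 (adjusted p = 1.09e-08). KLK15 differed by -0.6365 between 22Rv1 and LNCaP (adjusted p = 0.0188) and by -0.5363 between 22Rv1 and LNCaP95 (adjusted p = 0.0375). With each library left out, the KLK2 difference of 0.1729 held in only 8 of 27 fits. The KLK15 differences held in 26 and 19 of 27 fits. For KLK3, every knockdown library of 22Rv1 lay above its controls and every one of LNCaP and LNCaP95 below, and the log2 change differed by 2.055 between 22Rv1 and LNCaP and by 1.393 between 22Rv1 and LNCaP95. These KLK3 differences were not tested, as the gene was chosen for this pattern.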

How the results depend on the processing

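Over the alternatives other than leaving out a library, 738 values kept their side of the threshold or moved by less than their limit. A further 4 lost the threshold, 1 gained it and 46 moved. With a library left out these counts were 1051, 30, 4 and 22. No value that passed the threshold in either fit reversed its direction. A value that passed in neither fit could change sign and still be counted as kept. The change of KLK15 with knockdown in 22Rv1, for example, ranged from -0.12 to 0.19 with single libraries left out. The cause of these changes was not tested.

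With library size alone, KLK2 at control level in LNCaP95 against LNCaP (0.083, adjusted p = 0.0546, edgeR) and its difference in response between these lines (-0.13, adjusted p = 0.0816) lost the threshold, and KLK3 moved to -0.87 in LNCaP95, 0.76 for LNCaP95 against LNCaP and 1.30 for 22Rv1 against LNCaP95. The KLK2 difference in response between 22Rv1 and LNCaP was lost with RLE size factors (0.17, adjusted p = 0.0514) and filterByExpr (0.16, adjusted p = 0.0593). With CPSF1 sh1 or CPSF1 sh2 alone, KLK3 was -1.52 or -1.73 in LNCaP and -0.85 or -1.06 in LNCaP95. Kallikreins higher in LNCaP numbered 3 (KLK15, KLK1 and KLK14) with filterByExpr and with no filter, against 1. In 22Rv1, 2 were higher with CPSF1 sh1 alone, against 1, and 3 were lower with CPSF1 sh2 alone, against 1. Of all genes, 19.9% passed for CPSF1 sh1 and 40% for CPSF1 sh2 in the 22Rv1 fit of 3 groups, and 47.7% passed in LNCaP with no filter. These family counts include KLK3.

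With each library left out, KLK2 ranged from 0.078 to 0.14 between LNCaP95 and LNCaP controls and from 0.12 to 0.21 for the response of 22Rv1 against LNCaP (adjusted p from 0.0103 to 0.139). KLK15 ranged from 0.12 to 0.42 between 22Rv1 and LNCaP controls and from 0.10 to 0.41 between 22Rv1 and LNCaP95 controls, and its response from -0.80 to -0.51 and from -0.70 to -0.42 for the same pairs. KLK3 ranged from 1.99 to 2.09 for the response of 22Rv1 against LNCaP and from 1.31 to 1.43 against LNCaP95. KLK4 ranged from 0.017 to 0.099 between LNCaP95 and LNCaP controls and from -0.15 to -0.087 between hairpins in LNCaP.

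Samples were treated as unpaired. The correlation of same-numbered samples exceeded 0.1 in 3 of 9 LNCaP pairs, 2 of 9 LNCaP95 pairs and 1 of 9 22Rv1 pairs. For samples of different number it did so in 0 of 18 LNCaP, 4 of 18 LNCaP95 and 1 of 18 22Rv1 pairs. Pairing by replicate number was thus not clear in LNCaP95 or 22Rv1, and some pairing in LNCaP is possible. With the replicate block, KLK4 between hairpins in LNCaP passed (-0.12, adjusted p = 0.0338), and no other call on a member changed. By Spearman's rho in place of Pearson's r, 0 of the 5 genes most like KLK3 and 0 of those most like KLK2 over 27 libraries were the same, and 3 of those most like KLK4. With lines centred, 2 of 5 were shared for KLK3, 3 for KLK2 and 2 for KLK4. Depth limits KLK15 most, at 43 to 152 counts per library.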
